A study of Mus musculus with 56 samples.

Results

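The transcripts of 9 genes that control appetite were followed in the anterior hypothalamus of mice fed only by day or only by night. They encode the feeding peptides Agrp, Npy, Pomc and Cartpt, the leptin receptor Lepr, the ghrelin receptor Ghsr, the melanocortin receptors Mc3r and Mc4r, and the neuropeptide Y receptor Npy1r. The genes were chosen by name, with no measured value in the rule. All 9 were found among the 17564 genes listed, and all 9 passed the filter on low values, which 16245 genes passed. Of these, 16074 had a usable transcript length and were tested for differences.

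In the arcuate nucleus, 1 group of neurons makes agouti-related peptide (Agrp) with neuropeptide Y (Npy) and promotes feeding, and another makes pro-opiomelanocortin (Pomc), often with the peptide of Cartpt, and restrains it. The melanocortin peptides cut from Pomc activate the receptors Mc3r and Mc4r, and Agrp blocks these receptors. Leptin from fat acts through Lepr to raise Pomc and lower Agrp and Npy, while ghrelin from the stomach acts through Ghsr on the Agrp neurons. Neuropeptide Y inhibits neurons that carry the Y1 receptor, Npy1r, among them neurons of the paraventricular nucleus, which also carry Mc4r.

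RNA was sequenced from 56 female C57BL/6J mice aged 9 weeks, group housed in 12 h light and 12 h dark and kept on restricted feeding for 7 days. In day time-restricted feeding (DRF) food was offered from lights on, zeitgeber time 0 (ZT0), to ZT12, and in night time-restricted feeding (NRF) from ZT12 to ZT0. Sampling ran every 4 h from ZT0 to ZT24, 7 time points in all, with 4 mice per regimen at each, and the ZT24 mice were other animals than the ZT0 mice. No mouse in this comparison was fed ad libitum, so neither regimen is an unrestricted control.

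Levels are given as CPM, read counts scaled to the normalized library size, recovered from the deposited values. The normalized library size was 29591266 to 34493344 reads per mouse, so the member values rested on 10 reads (the lowest Agrp value) or more. Differences are given on the scale of log2(CPM + 1) with their standard error (SE). Ranges over all alternatives also take in log2(deposited value + 1), whose unit differs, so their ends are not all on 1 scale. A difference was called when its limma p-value, adjusted by the Benjamini-Hochberg method over all 16074 genes, was under 0.05. DRF ZT16 replicates 3 and 4 stood apart from the other libraries. Across 15905 genes the deviation of these libraries from the gene means followed GC content with r = 0.60 and r = 0.71, while the other 54 libraries lay between -0.42 and 0.38. NRF ZT20 replicate 4 and DRF ZT0 replicate 3 held far more transcripts of leptomeningeal cells than the rest, as described for Lepr.

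Per kilobase of transcript, Npy, Cartpt and Pomc were the most abundant of the 9 members. The median over 56 mice was 56.7 CPM per kilobase for Npy, 45.8 for Cartpt and 19.2 for Pomc. Npy1r followed with 6.87 CPM per kilobase, then Agrp with 3.66, Mc3r with 2.80, Ghsr with 1.91, Mc4r with 1.65 and Lepr with 0.439. This order held in nearly every mouse for Cartpt above Pomc (56 of 56), Pomc above Npy1r (55), Mc3r above Ghsr (56) and Mc4r above Lepr (55). It was less firm for Npy above Cartpt (46 of 56 mice), Npy1r above Agrp (48), Agrp above Mc3r (40) and Ghsr above Mc4r (37), and these neighbours overlapped in range.

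Npy1r was the member that differed between feeding states when both regimens were averaged. In DRF alone the difference was not called. In NRF, the 16 mice sampled with food available had a lowest level of 23.0, a median of 25.8 and a highest of 31.8 CPM. The 12 NRF mice sampled with food withheld had 17.8, 20.9 and 24.1 CPM. These NRF ranges overlapped only between 23.0 and 24.1 CPM. In DRF, the 12 mice with food had 20.6, 25.5 and 34.0 CPM, and the 16 without food had 18.0, 22.9 and 27.9 CPM, so the ranges overlapped widely. Here ZT0 and ZT24 count as food withheld in DRF and as food available in NRF, because these mice were taken at the end of the night.

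Averaged over both regimens, which balances light and dark, Npy1r was lower with food withheld by a log2 difference of -0.24 ± 0.04 (SE, 56 mice), 0.84-fold (adjusted p = 2.77e-05, limma). It was the only member of 9 called. Of all 16074 genes, 15.8% were called in this comparison, 7.15% higher and 8.67% lower, so 1 call in 9 was a share near the background and no result about the members as a set. The difference was -0.32 ± 0.06 in NRF (adjusted p = 2.79e-05), where 29.7% of all genes were called. It was -0.17 ± 0.06 in DRF (adjusted p = 0.1), where 2.58% were called. The difference between regimens was tested as the light minus dark contrast (the NRF minus DRF difference divided by 2), which was -0.07 ± 0.04 (adjusted p = 0.199) and was not called. Without DRF ZT16 replicates 3 and 4, the contrast of feeding states remained called at -0.21 (adjusted p = 0.000191). The DRF value alone fell to -0.11 without these libraries (adjusted p = 0.255), and the light minus dark contrast of Npy1r was then called at -0.10 (adjusted p = 0.0411). Over 21 alternatives the DRF value ran from -0.27 to -0.05 and was called in 2 of them (lowest adjusted p = 0.0185, limma).

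**Figure D1:**
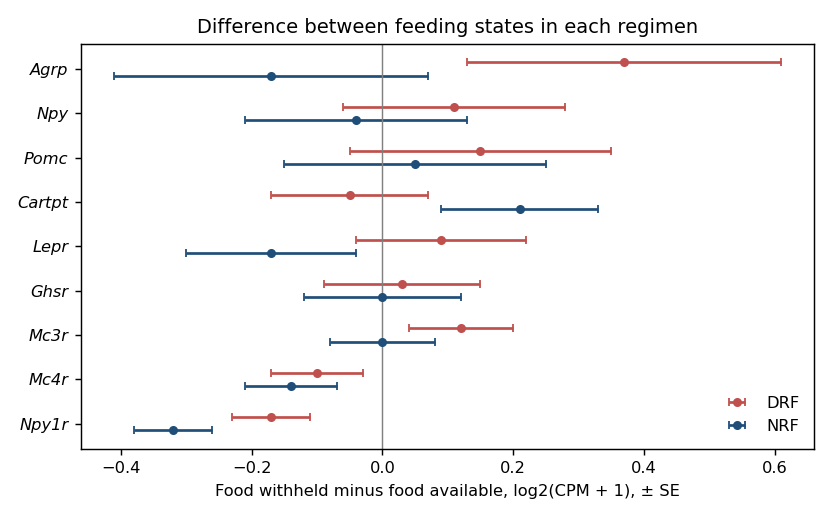
Difference between feeding states (food withheld minus food available, log2(CPM + 1), x axis) for the 9 transcripts (y axis), in DRF (red) and NRF (blue). Points are limma estimates and bars are ± 1 SE. Npy1r lies furthest below 0 in NRF at -0.32, with the DRF value at -0.17, and Mc4r lies below 0 in both regimens.

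The time course of Npy1r differed between the 2 regimens, with the highest group mean at ZT20 in NRF and at ZT12 in DRF. In NRF the 4 mice at ZT8 had 17.8, 20.8, 21.0 and 20.3 CPM, and those at ZT20 had 29.7, 27.6, 25.9 and 31.8 CPM. The mean of 28.7 ± 2.58 CPM at ZT20 (SD, n = 4) was 1.44 times the mean at ZT8, and these groups did not overlap. The NRF mice in between had 24.7, 29.4, 25.6 and 24.8 CPM at ZT0, 23.8, 20.2, 24.1 and 22.0 CPM at ZT4, and 19.4, 19.4, 22.1 and 22.8 CPM at ZT12.

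NRF levels were higher again in the dark, with 23.6, 27.9, 23.0 and 24.1 CPM at ZT16 and 23.7, 25.8, 27.7 and 29.8 CPM at ZT24. In DRF the highest mean was at ZT12, at the end of the feeding window, where the 4 mice had 24.4, 25.2, 28.2 and 34.0 CPM. The lowest was at ZT24, with 23.1, 18.0, 22.7 and 22.9 CPM. The DRF range was narrower, with a ratio of highest to lowest group mean of 1.29.

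The other DRF mice had 26.7, 20.9, 25.7 and 23.0 CPM at ZT0, 24.9, 22.4, 25.9 and 26.1 CPM at ZT4, and 20.6, 23.4, 27.8 and 27.9 CPM at ZT8. At ZT16 they had 27.9, 25.3, 20.8 and 20.5 CPM, of which the lower pair came from replicates 3 and 4, the libraries that stood apart. At ZT20 they had 23.4, 21.2, 20.5 and 23.4 CPM, all under the 4 NRF mice of that time.

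**Figure D2:**
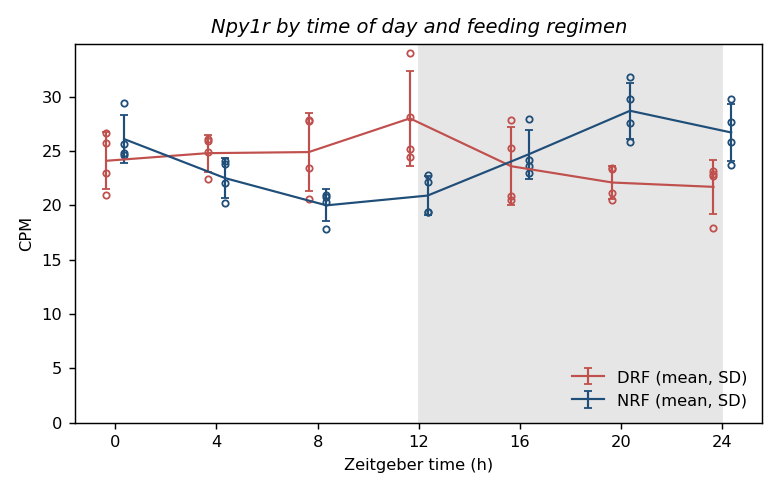
Npy1r level in CPM (y axis) against zeitgeber time in hours (x axis; the dark period is shaded), in DRF (red) and NRF (blue). Circles are single mice and lines join group means with SD bars (n = 4). The NRF mean is lowest at ZT8 and highest at ZT20 (28.7 CPM), while the DRF mean is highest at ZT12, where the mice reach 34.0 CPM.

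A 24-h cosine fitted to log2(CPM + 1) peaked at ZT20.8 ± 0.47 h (SE) in NRF with an amplitude of 0.25 ± 0.03, and at ZT9.75 ± 1.47 h in DRF with an amplitude of 0.12 ± 0.04. These peaks lay 11.1 ± 1.5 h apart, each in its own feeding window, though the DRF cosine was not called (limma adjusted p = 0.0929, and 0.0306 with library trends removed, where it was called; 4.07% of all genes were called in DRF and 27.8% in NRF). The difference in the 24-h rhythm between regimens was called for Npy1r (size of the difference 0.36 on the log2 scale, adjusted p = 2.93e-05, limma), against 11.2% of all genes. The other 8 members were not called, and Mc4r came next with an adjusted p of 0.154. Within each regimen, rhythm was tested by JTK_CYCLE and the Lomb-Scargle periodogram combined. Npy1r was rhythmic in NRF (adjusted p = 4.38e-06), where 30.3% of 16245 genes were called, and not in DRF (adjusted p = 1), where 0.677% were called.

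At single time points, Npy1r was higher in DRF at ZT12 by 0.39 ± 0.10 on the log2 scale, 1.31-fold (adjusted p = 0.0364, limma), and the groups did not overlap. This was the only call among 63 pairs of member and time point, while 4.55% of such tests were called over all genes. By time point that share was 4.63% at ZT0, 4.01% at ZT4, 0.156% at ZT8, 1.57% at ZT12, 20% at ZT16, 1.16% at ZT20 and 0.274% at ZT24. The ZT12 call was lost without replicate 1 (adjusted p = 0.0791), replicate 3 (0.33) or replicate 4 (0.164). The DRF mice were the lower group at ZT20 and at ZT24, again without overlap, with differences of -0.36 ± 0.10 (adjusted p = 0.0587) and -0.29 ± 0.10 (adjusted p = 0.298). The groups of 7 of the 63 pairs did not overlap, 11.1% of pairs, and over all genes 9.79% did not. By time point the share over all genes was 14.5% at ZT0, 14.1% at ZT4, 9.71% at ZT8, 6.33% at ZT12, 7.94% at ZT16, 8.21% at ZT20 and 7.73% at ZT24. Over all times together Npy1r did not separate the regimens (difference 0.00 ± 0.04, 95% interval -0.08 to 0.07).

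The genes whose deviations from the group mean were most like those of Npy1r over the 56 mice were Syt6 (r = 0.71), Nedd4l (0.61) and Lrrn3 (0.58). Of the other receptors listed for these peptides, 4 of 6 were tested, and none was called in the contrast of feeding states. The Y2 receptor Npy2r, a presynaptic receptor, had a difference of -0.10 ± 0.04 with food withheld (adjusted p = 0.0954), and the Y5 receptor Npy5r had -0.08 ± 0.03 (adjusted p = 0.0921). Npy2r was rhythmic in NRF (adjusted p = 0.00791).

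Agrp, Pomc and Npy had the largest SD within groups of the 9 members. Agrp ranged from 0.332 to 12.3 CPM, a ratio of 37.1, from 10 to 384 reads. Within groups its SD was 0.77 in DRF and 0.48 in NRF on the log2 scale, while the median SD of all genes tested was 0.12 in DRF and 0.10 in NRF. The range was 5.79 to 56.7 CPM for Pomc, 11.9 to 68.5 CPM for Npy and 20.9 to 86.0 CPM for Cartpt. All 4 peptides had a larger SD within groups in DRF than in NRF, with ratios of 1.62 for Agrp, 1.60 for Npy, 1.74 for Pomc and 1.98 for Cartpt. The ratio was also 1.67 for Ghsr, 1.41 for Npy1r and 1.38 for Mc3r, but 0.93 for Mc4r and 0.75 for Lepr. The median of this ratio over all genes was 1.27.

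Agrp, which drives feeding, was high in every DRF mouse at ZT16, 4 h after food was removed, with 6.48, 7.52, 7.55 and 7.04 CPM. The NRF mice of ZT16, 4 h after food was offered, had 4.87, 2.89, 1.2 and 2.68 CPM. The groups did not overlap, and the difference of 1.14 ± 0.44 on the log2 scale, 2.21-fold, missed the threshold (adjusted p = 0.0563, limma). At this time 20% of all genes were called. The difference was 1.12 without DRF ZT16 replicates 3 and 4 (adjusted p = 0.428). Over 17 alternatives it ran from 0.74 to 1.45 and was called in 3 of them (lowest adjusted p = 0.0101, limma). Pomc at ZT16 was also without overlap, with 27.4, 32.5, 37.9 and 32.3 CPM in DRF and 24.6, 19.4, 16.1 and 19.5 CPM in NRF, a difference of 0.69 ± 0.35 (adjusted p = 0.161). Npy differed by 0.49 ± 0.30 (adjusted p = 0.259) and Cartpt by 0.36 ± 0.22 (adjusted p = 0.251), with groups that overlapped.

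At ZT0, at the end of the fast in DRF, Agrp was 10.6, 2.95, 8.16 and 12.3 CPM, the highest group mean of all 14 groups (8.52 ± 4.08 CPM, SD). The NRF mice of ZT0 had 3.41, 3.5, 4.12 and 3.8 CPM, a difference of 0.88 ± 0.44 (adjusted p = 0.281). DRF mice taken at ZT24, the same clock time, had 6.26, 1.79, 7.13 and 0.332 CPM. ZT24 minus ZT0 in DRF was -1.17 ± 0.44 for Agrp (adjusted p = 0.191), -0.83 ± 0.30 for Npy (0.175), -0.93 ± 0.35 for Pomc (0.196) and -0.49 ± 0.22 for Cartpt (0.271). None was called, against 0.523% of all genes in DRF and 2.21% in NRF, where Agrp differed by 0.09 ± 0.44. The size of the ZT24 minus ZT0 difference of Agrp in DRF was close to that of the largest difference between regimens at a time point, 1.14 at ZT16.

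Npy in DRF was 68.5, 24.6, 54.1 and 59.8 CPM at ZT0, and in NRF 30.2, 30.0, 38.9 and 30.1 CPM, a difference of 0.58 ± 0.30 (adjusted p = 0.314). DRF replicate 2 was the lowest of its group for Npy, as it was for Agrp. Over all times, the DRF minus NRF difference was 0.29 ± 0.17 for Agrp (95% interval -0.03 to 0.61), 0.15 ± 0.11 for Npy (-0.07 to 0.37), 0.02 ± 0.13 for Pomc (-0.24 to 0.28) and 0.01 ± 0.08 for Cartpt (-0.15 to 0.17). No member of 9 was called, against 10.6% of all genes, and these intervals leave room for sizeable differences.

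**Figure D3:**
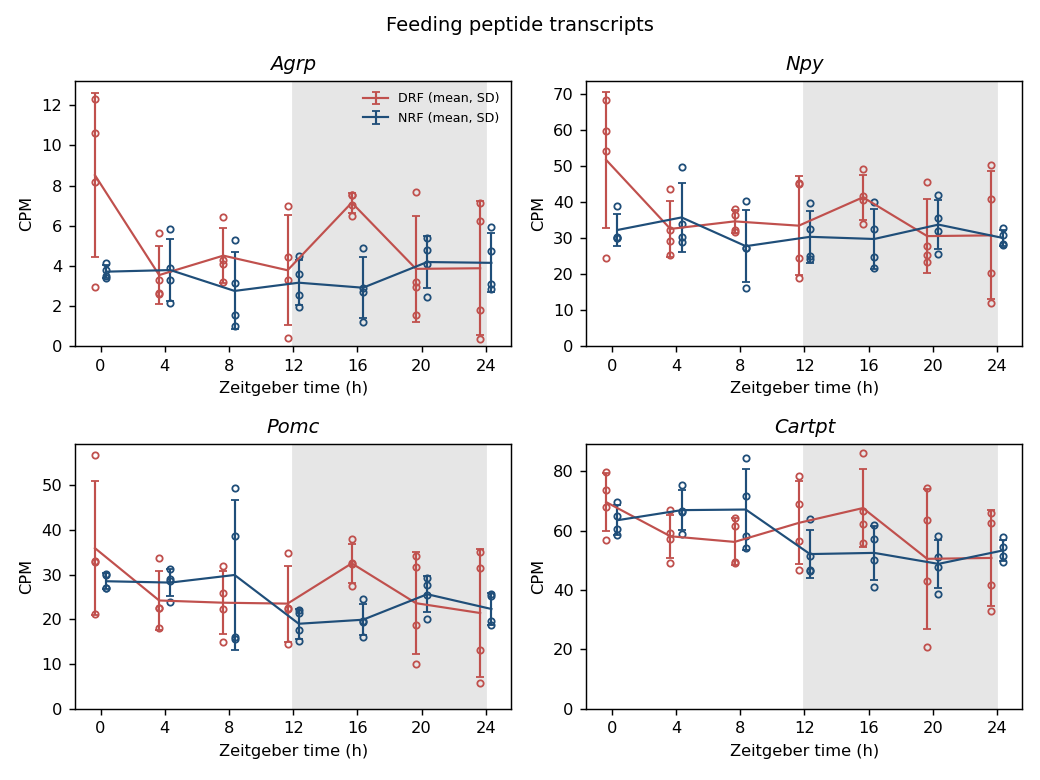
Levels of Agrp, Npy, Pomc and Cartpt in CPM (y axes) against zeitgeber time in hours (x axes; the dark period is shaded), in DRF (red) and NRF (blue). Circles are single mice and lines join group means with SD bars (n = 4). The Agrp mice of DRF at ZT16 lie between 6.48 and 7.55 CPM, above all NRF mice of that time, while DRF mice at ZT0 and ZT24 spread widely.

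Food withheld minus available gave no call for the peptides. Agrp had 0.37 ± 0.24 in DRF (adjusted p = 0.495) and -0.17 ± 0.24 in NRF (adjusted p = 0.637). In DRF the median Agrp level was 6.76 CPM in 16 mice without food and 3.69 CPM in 12 with food, with ranges of 0.332 to 12.3 and 0.382 to 7.00 CPM. Of the 16 mice without food, 8 lay above the highest mouse with food and the lowest lay below all of those with food. Averaged over regimens, the difference was 0.10 ± 0.17 for Agrp, 0.04 ± 0.12 for Npy, 0.10 ± 0.14 for Pomc and 0.08 ± 0.09 for Cartpt.

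Cartpt, which encodes a peptide that restrains feeding, was the peptide called rhythmic in NRF (adjusted p = 0.0055), so that 2 of 9 members were called there against 30.3% of all genes. Its NRF levels were 66.7, 75.4, 66.4 and 58.9 CPM at ZT4 and 58.3, 54.2, 71.5 and 84.3 CPM at ZT8. At ZT20 they were 47.8, 51.0, 38.5 and 58.0 CPM, all below the ZT4 mice. The fitted peak was at ZT5.36 ± 0.87 h with an amplitude of 0.23 ± 0.06. The arcuate marker Ghrh was also rhythmic in NRF (adjusted p = 0.0142), and the NRF mean of 5 arcuate markers was 3.91 at ZT4 and 3.67 at ZT12 and at ZT16 (log2 scale). With that mean as a covariate the NRF amplitude of Cartpt was 0.12 (limma F test, adjusted p = 0.079). The call was lost in the limma F test of the cosine (adjusted p = 0.127), without replicate 2 (0.122) and without replicate 3 (0.171). In DRF the amplitude was 0.08 ± 0.11, and the difference in rhythm was not called (adjusted p = 0.357).

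The peptides rose and fell together from mouse to mouse. Deviations from the group mean correlated at r = 0.88 between Agrp and Npy, 0.85 between Agrp and Pomc, and between 0.63 and 0.88 over all pairs of the 4 peptides. They correlated as closely with markers of the arcuate nucleus, where the Agrp and Pomc neurons described above lie. For the mean of Tbx3, Ghrh, Kiss1, Tac2 and Isl1, r was 0.87 for Agrp, 0.75 for Npy, 0.87 for Pomc and 0.88 for Cartpt. This was not particular to arcuate markers. In the same order of peptides, r was 0.86, 0.67, 0.86 and 0.85 for the tanycyte marker Gpr50. It was 0.71, 0.58, 0.86 and 0.80 for the ventromedial marker Nr5a1. For the lateral markers it was 0.65, 0.39, 0.66 and 0.79 (Pmch) and 0.55, 0.36, 0.54 and 0.76 (Hcrt), highest for Cartpt. For the paraventricular marker Sim1 it was 0.30, 0.04, 0.36 and 0.26. Mc3r and Ghsr followed the arcuate marker mean too (r = 0.72 and 0.70), and Lepr (0.25), Npy1r (0.11) and Mc4r (0.04) hardly did. Ghsr had r = 0.80 with Gpr50, 0.80 with the lateral marker Pmch and 0.76 with Sim1, beside 0.77 with Tbx3. Mc3r had r = 0.77 with Nr5a1, and Lepr had 0.50 with Pmch. Of the choroid plexus genes, Kl had r = 0.62 with Lepr, while Ttr had -0.08. Kl also had r = 0.77 with Ghsr, so it did not mark the choroid plexus alone. The points are mice that share a library each, so these values describe the samples and carry no test.

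All 5 arcuate markers were present in all 56 mice. Their summed level ran from 58.2 to 117 CPM in DRF and from 67.5 to 115 CPM in NRF. None of the 5 was called between regimens or between feeding states. The marker mean was 3.81 ± 0.12 in DRF and 3.67 ± 0.26 in NRF at ZT16 (SD, n = 4, log2 scale), and in DRF it was 3.95 ± 0.31 at ZT0 and 3.53 ± 0.36 at ZT24. In bulk tissue, fewer cells of a type and less RNA per cell cannot be told apart, and the labels name only the anterior hypothalamus.

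With the arcuate marker mean as a covariate (a fit added once the values were known), Agrp was higher in DRF over all times by 0.47 ± 0.09, 1.38-fold (adjusted p = 0.000385, limma). Npy was higher by 0.26 ± 0.08 (adjusted p = 0.021) and Mc3r by 0.12 ± 0.04 (adjusted p = 0.0255), while 15.6% of all genes were called in that fit. Pomc (0.17 ± 0.07, adjusted p = 0.0824) and Cartpt (0.10 ± 0.04, adjusted p = 0.0788) were not called. Agrp was then called at ZT16 (0.82 ± 0.22, adjusted p = 0.0101) and at ZT8 (1.23 ± 0.23, adjusted p = 0.0136), and in light minus dark (-0.34 ± 0.09, adjusted p = 0.00396). In these fits 19.4%, 0.0435% and 20.7% of all genes were called, and 17.2% between feeding states, where Npy1r alone was called. Of these calls, only that of Npy1r between feeding states was also made in the main fit, which has no covariate. In the main fit Agrp differed by 0.67 ± 0.44 at ZT8 (adjusted p = 0.506, limma) and by 0.29 ± 0.17 over all times. At ZT8 the marker mean itself was lower in DRF (3.60 ± 0.20) than in NRF (3.85 ± 0.32, SD, n = 4). Agrp at ZT16 was called in 3 of 17 alternatives, the covariate fit among them.

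**Figure D4:**
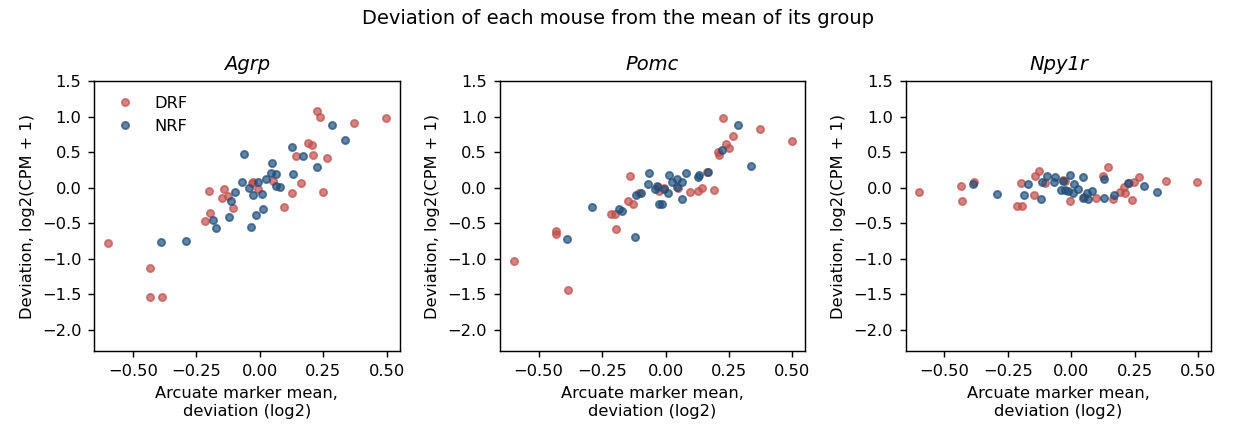
Deviation of each mouse from the mean of its group in Agrp, Pomc and Npy1r (y axes, log2(CPM + 1)) against its deviation in the mean of 5 arcuate markers (x axes, log2), in DRF (red) and NRF (blue). Agrp and Pomc rise along the marker mean (r = 0.87 each), and Npy1r does not (r = 0.11).

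Among all genes with a mean of at least 1 on the log2 scale, the closest to Agrp was Tbx3 itself (r = 0.90), a transcription factor of the arcuate nucleus, followed by Fzd5 (0.90) and Crabp1 (0.88). The closest to Npy were Agrp (0.88), Sst (0.81), which encodes the peptide somatostatin, and Crabp1 (0.80). Pomc was most like Esyt3 (0.89), H2-Q2 (0.88) and Lamb3 (0.87), and Mc3r shared Esyt3 (0.84) and Lamb3 (0.82) with it. Cartpt was most like Gpx3 (0.90), Resp18 (0.90) and 6330403K07Rik (0.88). Ghsr was most like Plagl1 (0.91), Asb4 (0.90) and Pcsk1 (0.89), which encodes a convertase that cuts Pomc and other prohormones.

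The 250 bases before an annotated transcription start were read from RefSeq (GRCm38.p6). This was done for Npy1r, the member called between feeding states, and for the 3 peptides with an entry that moved together from mouse to mouse. The windows of Npy1r, Cartpt and Lepr lie within the gene spans given below, so the start used for them is not the outermost one. Of the 9 members, 7 had an entry. They are shown 5′ to 3′ in lower case, with matches to any of the motifs searched in capitals.
Npy1r (chr8:66697172-66697421, plus strand): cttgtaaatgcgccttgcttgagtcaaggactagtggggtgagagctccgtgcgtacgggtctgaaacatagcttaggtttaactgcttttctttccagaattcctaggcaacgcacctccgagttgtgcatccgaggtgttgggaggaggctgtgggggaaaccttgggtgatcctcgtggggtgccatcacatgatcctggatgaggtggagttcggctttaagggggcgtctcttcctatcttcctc
Npy (chr6:49822460-49822709, plus strand): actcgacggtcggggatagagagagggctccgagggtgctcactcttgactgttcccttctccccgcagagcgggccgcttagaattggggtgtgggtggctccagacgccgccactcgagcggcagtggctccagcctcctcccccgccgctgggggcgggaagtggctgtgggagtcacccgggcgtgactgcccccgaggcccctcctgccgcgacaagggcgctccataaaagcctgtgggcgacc
Pomc (chr12:3954695-3954944, plus strand): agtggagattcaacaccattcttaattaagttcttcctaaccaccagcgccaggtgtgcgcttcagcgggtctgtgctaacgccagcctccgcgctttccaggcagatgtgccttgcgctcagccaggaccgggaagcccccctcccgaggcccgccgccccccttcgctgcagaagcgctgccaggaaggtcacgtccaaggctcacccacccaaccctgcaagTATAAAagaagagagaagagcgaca
Cartpt (chr13:99900684-99900933, minus strand): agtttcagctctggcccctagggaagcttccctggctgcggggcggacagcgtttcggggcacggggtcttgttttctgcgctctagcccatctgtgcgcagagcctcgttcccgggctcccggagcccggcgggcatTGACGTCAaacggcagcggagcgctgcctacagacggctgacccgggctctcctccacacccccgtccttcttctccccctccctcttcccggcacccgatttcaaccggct

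The motifs searched on both strands were the E-box CACGTG, the cAMP response element TGACGTCA, the FOXO motif GTAAACA, the STAT motif TTCNNNGAA and the TATA motif TATAAA. Windows of this length held them in 6.02%, 1.55%, 3.17%, 7.02% and 12.4% of 32851 promoters. Cartpt held the cAMP response element, which began 112 bases before the start used, and Pomc held the TATA motif, which began 25 bases before its start. Npy1r, Npy, Mc3r, Ghsr and Lepr held none of these letters in their windows. The genes lie on chromosome 8 (Npy1r at 66697149 to 66706800 and Agrp at 105566695 to 105579845), 6 (Npy, 49822710 to 49829507), 12 (Pomc, 3954945 to 3960643), 13 (Cartpt, 99898483 to 99910179), 4 (Lepr, 101717137 to 101815352), 2 (Mc3r, 172248492 to 172251114), 3 (Ghsr, 27371351 to 27379235) and 18 (Mc4r) of GRCm38.p6.

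Mc4r, the melanocortin receptor through which Pomc peptides lower food intake, ranged from 3.25 to 6.93 CPM, with an SD within groups above that of 83.3% of all genes. It was lower with food withheld by a difference of -0.12 ± 0.05 (0.92-fold, adjusted p = 0.0685), which missed the threshold, with -0.10 ± 0.07 in DRF and -0.14 ± 0.07 in NRF. It was called at -0.13 without ZT16 (adjusted p = 0.0329) and at -0.13 without NRF ZT20 replicate 4 (adjusted p = 0.0437), so its place beside the threshold turned on few libraries. At ZT24 the 4 DRF mice had 3.42, 3.25, 3.91 and 4.02 CPM, all below the NRF mice with 4.42, 4.76, 4.58 and 4.64 CPM, a difference of -0.27 ± 0.12 (adjusted p = 0.506). At ZT0, the same clock time, the ranges of 3.57 to 5.37 CPM in DRF and 4.86 to 5.98 CPM in NRF overlapped (difference -0.24 ± 0.12, adjusted p = 0.278). Its closest genes were Lmnb1 (r = 0.56), Coil (0.56) and Wscd2 (0.55).

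Mc3r, the other neural melanocortin receptor, lay between 4.79 and 10.6 CPM. At ZT16 the DRF mice had 8.69, 8.11, 9.21 and 9.16 CPM and the NRF mice 7.27, 6.74, 6.61 and 8.04 CPM, without overlap, with a difference of 0.26 ± 0.14 (adjusted p = 0.182). Over all times it differed by 0.08 ± 0.05 (95% interval -0.03 to 0.18), and between feeding states by 0.06 ± 0.06. The ghrelin receptor Ghsr lay between 4.46 and 13.5 CPM and differed by 0.06 ± 0.09 between regimens and 0.02 ± 0.09 between feeding states. Its DRF values at ZT16 were 13.5, 11.2, 7.43 and 5.83 CPM, with the lower pair in the libraries that stood apart.

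The leptin receptor Lepr was the least abundant, with 1.88 to 12.0 CPM. Its highest value, 12.0 CPM, came from NRF ZT20 replicate 4, while the other mice of that group had 3.25, 2.89 and 2.31 CPM. The next, 6.57 CPM, came from DRF ZT0 replicate 3, whose group otherwise had 3.5, 2.95 and 3.6 CPM. The same libraries led all others in 6 transcripts of leptomeningeal cells, the covering of the brain, chosen after these values were seen (Igf2, Dcn, Lum, Aldh1a2, Slc6a20a and Col1a1). Their sum was 296 CPM in NRF ZT20 replicate 4 and 242 CPM in DRF ZT0 replicate 3. The median of this sum was 48.6 CPM in DRF and 51.2 CPM in NRF, and the next library had 98.2 CPM. The deviations of Lepr and of this sum correlated at r = 0.64 over 56 mice, a value that includes both of these libraries. The libraries next highest in the sum ranked 11, 29, 49 and 40 of 56 in Lepr. The part of such cells in the Lepr level was not tested.

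Lepr differed by 0.06 ± 0.09 between regimens (95% interval -0.11 to 0.23) and by -0.04 ± 0.09 between feeding states. Without replicate 4 of every group, Lepr was called higher in DRF over all times (0.24, adjusted p = 0.0328). Without NRF ZT20 replicate 4 alone, Lepr differed by 0.13 ± 0.06 between regimens (adjusted p = 0.187) and by 0.03 ± 0.06 between feeding states (adjusted p = 0.782), neither called. Its closest genes were Fgl2 (r = 0.80), Slc9a2 (0.76) and Gjb2 (0.76). Lepr shares its first exons with Leprot, and reads there may be split between the genes.

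**Figure D5:**
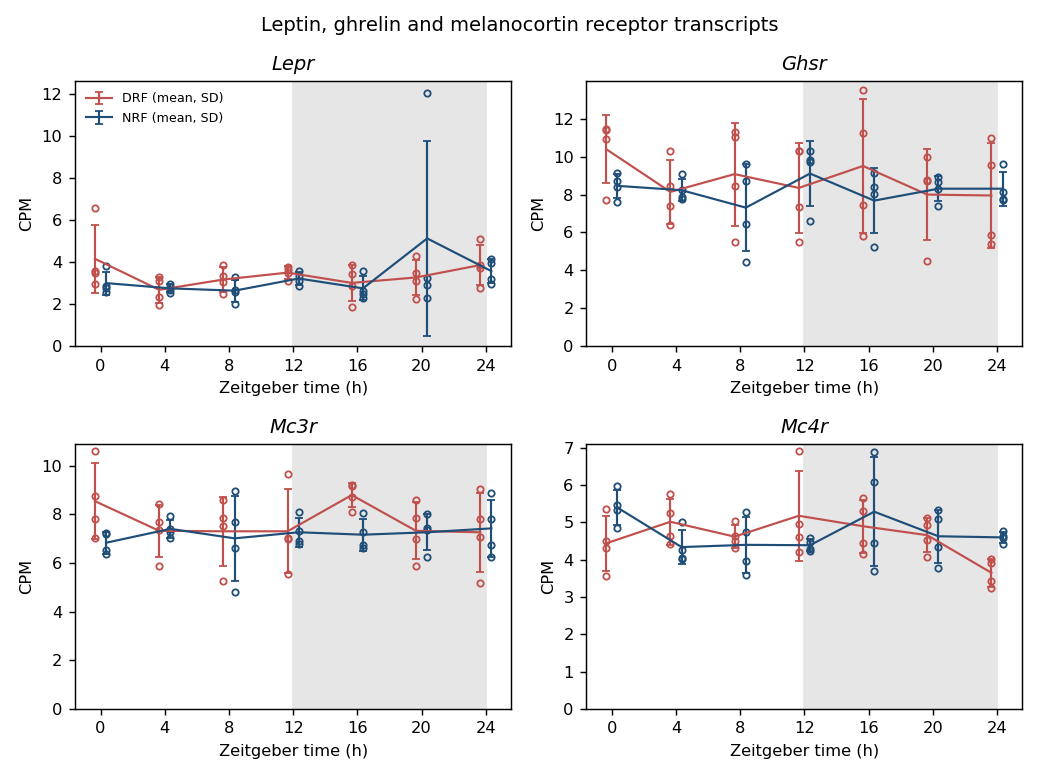
Levels of Lepr, Ghsr, Mc3r and Mc4r in CPM (y axes) against zeitgeber time in hours (x axes; the dark period is shaded), in DRF (red) and NRF (blue). Circles are single mice and lines join group means with SD bars (n = 4). The wide Lepr bar of NRF at ZT20 is set by a single mouse at 12.0 CPM, and the 4 DRF mice of Mc4r at ZT24 (3.25 to 4.02 CPM) lie below the NRF mice.

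Of 17 genes of leptin, ghrelin and energy sensing, all tested, 4 were called between feeding states, 2 higher and 2 lower with food withheld, beside 15.8% of all genes. The median difference of the list was -0.02, and that of all genes was 0.00. Jak2, the kinase bound to the leptin receptor, was lower by -0.14 ± 0.03 (adjusted p = 0.00199), and Socs3, a feedback inhibitor of that kinase, by -0.13 ± 0.04 (adjusted p = 0.0288). Ucp2, a mitochondrial carrier, was higher by 0.18 ± 0.05 (adjusted p = 0.00838), and Prkab1, a subunit of the AMP-activated kinase, by 0.13 ± 0.03 (adjusted p = 0.00515). Levels of Jak2 in NRF had a lowest value of 48.9, a median of 54.4 and a highest of 59.9 CPM with food, and 42.9, 47.8 and 57.4 CPM without. In DRF they were 49.4, 54.3 and 58.8 CPM with food and 33.5, 52.5 and 58.1 CPM without, so the medians lay closer together.

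Between regimens, 3 of these 17 were called, all higher in DRF: Irs2, an adaptor of the insulin receptor (0.19 ± 0.04, adjusted p = 0.00132), Stat3, the transcription factor that leptin activates (0.10 ± 0.02, adjusted p = 0.00342), and Socs3 (0.14 ± 0.04, adjusted p = 0.0241). The share of all genes called higher was 5.64%. The rhythm of Ucp2, Stat3, Socs3 and Jak2 differed between regimens, with adjusted p-values of 0.0256, 0.019, 0.0291 and 0.0261, and 11.2% of all genes were called there. In NRF, 5 of the 17 were rhythmic, led by Ucp2 (adjusted p = 0.000505), a share close to the 30.3% of all genes. In DRF none was by the combined test, which called 0.677% of all genes. In light minus dark, Leprot (0.13 ± 0.02, adjusted p = 8.57e-05) and Prkab1 (0.15 ± 0.03, 0.00114) were higher in the light and Irs2 (-0.13 ± 0.04, 0.013) and Stat3 (-0.07 ± 0.02, 0.0271) lower, while 18.2% of all genes were called.

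Of 19 other appetite peptides, 18 were tested, and 2 were called between regimens, both lower in DRF, where 4.95% of all genes were lower. These were the satiety peptides Cck (-0.47 ± 0.15, 0.72-fold, adjusted p = 0.0394) and neurotensin, Nts (-0.24 ± 0.04, 0.85-fold, adjusted p = 0.000791). The median of the list was -0.05. Prlh, which encodes prolactin-releasing peptide, was higher with food withheld (0.28 ± 0.10, adjusted p = 0.0416), at a median of 0.546 CPM and at 0 in 2 libraries. No gene of this list was called rhythmic in either regimen, while 30.3% of all genes were in NRF and 0.677% in DRF. Of 10 genes that process or accompany these peptides, Cpe, which trims prohormones, was called between regimens (-0.08 ± 0.02, adjusted p = 0.0106), and none between feeding states. Cck is also abundant in cortex and thalamus, and the summed markers of these tissues ran from 108 to 495 CPM (5 cortical and striatal genes) and from 19.2 to 166 CPM (3 thalamic genes) over the mice. The median of the thalamic sum was 29.8 CPM in DRF and 41.9 CPM in NRF, and that of the cortical and striatal sum went the other way, with 148 CPM in DRF and 124 CPM in NRF. Of the cortical and striatal genes 1 of 5 was called, Rgs9, which was higher in DRF (0.24 ± 0.06, adjusted p = 0.0101, limma). It had the highest median of that list, 82.9 CPM. Ppp1r1b (0.49 ± 0.23) and Drd1 (0.30 ± 0.17) also lay higher in DRF, but Tbr1 (-0.15 ± 0.10) and Neurod6 (0.00 ± 0.09) did not. The thalamic genes Prkcd (-0.34 ± 0.21), Lef1 (-0.27 ± 0.10) and Tnnt1 (-0.47 ± 0.22) all lay lower in DRF, and none was called. The part of these tissues in the Cck difference was not tested.

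Markers of anterior hypothalamic nuclei, summed by nucleus, were found in every library. Summed levels ran from 52.2 to 106 CPM for 6 suprachiasmatic genes, from 277 to 767 CPM for 5 paraventricular and supraoptic genes and from 10.3 to 23.5 CPM for 3 preoptic genes. Ventromedial markers (20.8 to 79.7 CPM) and lateral markers (89.7 to 1044 CPM) of the hypothalamus were also found in all mice, as were the 5 tanycyte markers (38.8 to 96.9 CPM). Of 7 pituitary genes 6 were listed, and their sum ran from 9.81 to 28.4 CPM. Most of it was Tshb (8.47 to 13.5 CPM), which with Lhb (0.533 to 2.48 CPM) was at 0 in no library. Gh, Prl, Cga and Pitx1 were at 0 in 38, 41, 25 and 11 of 56 libraries, with highest values of 0.250, 0.587, 13.8 and 2.41 CPM, and Cga was 7.40 CPM in NRF ZT20 replicate 4. In the same check the choroid plexus gene Ttr had a median of 2.26 CPM.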

How the data were processed

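Poly(A) RNA of the anterior hypothalamus was sequenced in 56 mice (14 groups of 4). By the submitters' processing notes and the study's methods, reads were mapped to GRCm38.p6 with HISAT2, aligned to transcripts with Bowtie2, counted with RSEM and scaled between libraries by TMM factors. The authors deposited 1 value per gene and mouse, named TPM, which is treated here as a score: a length-scaled log2(CPM + 1), rescaled to a fixed sum (999333 to 999720). These steps were undone from 1293 genes with few reads (median relative deviation 2.37e-08). Whole reads, within 0.05 of a read in at least 90% of mice, came out for 15407 of 17564 genes. All members but Lepr were whole, and Lepr reads are fractional estimates. The length of Mc4r was found by search, the others are from GENCODE. Compression in the deposited values understates fold changes, and log2(CPM + 1) still does so for low genes such as Agrp and Lepr. The normalized library size was 29591266 to 34493344 reads.

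Genes with a deposited value of at least 1 in 80% of mice were tested with limma 3.58.1 (R 4.3.3; trend, 14 group means). Counts could not be the main unit, since the values are not counts; limma voom on recovered reads was an added alternative. Feeding states were compared as the mean of ZT16, ZT20 and ZT0 with ZT24 against that of ZT4, ZT8 and ZT12, signed by regimen. Rhythm was tested on the deposited scores by JTK_CYCLE and Lomb-Scargle (20 to 28 h), combined by Fisher's method, in Python 3.11.15. Both tests were tested on simulated data. Symbols were matched from NCBI Gene IDs, and 108 genes had none.

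The members and the gene lists were chosen with earlier results of these data known. Named beside the members are up to 4 called genes of each list and the 3 genes most like each member by r, of which 1 is not reported here. Alternatives were another scale, pseudocount 0.5, no filter, quantile normalization, removal of library trends with GC content, length and level, array weights, no variance trend, a replicate block, and leaving out replicates or time points. The leptomeningeal genes, the arcuate covariate and leaving out single libraries were chosen after the data were seen. Mice were separate animals, and cages and batches are not given in the sources used here.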

Additional observations from a re-analysis of the deposited data

Results flagged for a closer look

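Among 126 groups of 4 mice (9 members in 14 groups), 4 held a value far from the other 3, and chance alone marks about 1 group in 20. Npy in NRF ZT0 replicate 3 was 38.9 CPM, while the others lay at 30.0 to 30.2 CPM. Ghsr in DRF ZT0 replicate 2 was 7.70 CPM against 10.9 to 11.4 CPM, in a mouse that was also the lowest of its group in Agrp and Npy. Ghsr in NRF ZT12 replicate 1 was 6.59 CPM against 9.71 to 10.3 CPM. Npy1r in DRF ZT24 replicate 2 was 18.0 CPM against 22.7 to 23.1 CPM, and that group lay below NRF with or without it.

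The 24-h rhythm of Npy1r differed between DRF and NRF by a test of the difference itself (adjusted p = 2.93e-05, limma), and it was the only member of 9 for which this was so.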

How the results depend on the processing

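The contrast of feeding states for Npy1r kept its direction and its call in all 21 alternatives (-0.30 to -0.08, adjusted p at most 0.0053, limma). That range takes in log2(deposited value + 1), a scale with another unit than log2(CPM + 1). Its difference in rhythm was called in all 19 alternatives (adjusted p at most 0.00305, limma).

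No member was called between regimens, but 3 were with the arcuate marker mean as a covariate, and leaving out replicates gave 0 to 1 (Lepr, without replicate 4). At single time points the 1 call became 0 on log2(deposited value + 1), 2 with quantile normalization, array weights, adjustment over the 7 time points together or without DRF ZT16 replicates 3 and 4, and 3 with the arcuate covariate, and ranged from 0 to 1 when replicates were left out. Between feeding states the 1 call became 2 (with Mc4r) without ZT16, and ranged from 1 to 2 when replicates or NRF ZT20 replicate 4 were left out. Light minus dark had no call, but 1 with the arcuate covariate (Agrp) and 1 without DRF ZT16 replicates 3 and 4 (Npy1r). In NRF the 2 rhythmic members became 0 with the Lomb-Scargle periodogram alone and 1 in the limma F test, with or without the replicate block, and ranged from 1 to 2 when replicates were left out. Where not stated, the cause was not tested.

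Signs turned only in values that were not called. For feeding states they turned for Agrp without ZT0 (0.00) and ZT16 (-0.09), and for Npy without ZT0 (-0.03), ZT16 (-0.04) and with the arcuate covariate (-0.01). They turned for Pomc without ZT16 (-0.04) and at the phase ends (-0.14), Cartpt at the phase ends (-0.12) and Lepr with array weights (0.03) and at the phase ends (0.06). They turned for Ghsr without ZT0 (-0.01), without ZT16 (-0.02), at ZT4, ZT8, ZT16 and ZT20 alone (-0.03) and with the covariate (-0.01). Between regimens they turned for Pomc without ZT0 (-0.01) and ZT16 (-0.09), and for Cartpt without ZT0 (-0.01), ZT16 (-0.05) and DRF ZT16 replicates 3 and 4 (-0.01). They turned for Mc4r without library trends (0.02), ZT0 (0.01) and ZT24 (0.02), and for Npy1r on the deposited scale (0.00), with quantile normalization (0.00), without trends (0.05), with array weights (0.04), without ZT0 (0.02), ZT24 (0.05), ZT16 (0.01) or DRF ZT16 replicates 3 and 4 (0.02) and with the covariate (0.00). Leaving out replicates gave, for feeding states, -0.03 to 0.18 for Agrp, -0.03 to 0.10 for Npy, -0.01 to 0.16 for Cartpt, -0.10 to 0.06 for Lepr and -0.05 to 0.12 for Ghsr. Between regimens it gave -0.01 to 0.27 for Npy, -0.15 to 0.14 for Pomc, -0.06 to 0.11 for Cartpt, -0.03 to 0.24 for Lepr, -0.03 to 0.16 for Ghsr and -0.03 to 0.04 for Npy1r.

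Replicate numbers did not pair the mice: over 364 same-numbered pairs the deviations had a median r of 0.0058 (lowest -0.532), and 14 of 56 mice were closest to their own number. With the replicate block, the calls stayed at 0 of 9 between regimens, 1 at single time points and 1 between feeding states, and the difference in rhythm of Npy1r was called (adjusted p = 3.74e-05); the Cartpt rhythm had an adjusted p of 0.135 with it and 0.127 without. Agrp at 10 reads and Lepr at 61 reads in their lowest mice are the values most limited by depth.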
